A study of Mus musculus with 8 samples.

Results

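The genes described here belong to microglia and to the complement system, and were read in striatum from 4 CHL2 mutants and 4 wild-type mice, all 22 months old. The set was a list of 38 genes given by symbol, of the 18193 genes that the array values gave, and 36 of the 38 were measured. A gene counted as measured where at least 1 probe set was assigned to it alone, and its brightest probe set over the 8 arrays stood for it. C4b was not measured because its probe set is shared with a related gene, and C3 had no probe set assigned to it alone in the annotation used here. Neither of these central complement components is therefore analysed here. Membership was set by gene symbol.

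CHL2 mice are knock-in animals in which 150 CAG repeats from exon 1 of the human Huntington's disease gene were placed in the mouse's own Htt gene, and the mutants carried the expanded repeat on both copies (Q150/Q150). All 8 mice were of the strain C57BL/6 X CBA F1 hybrid. The knock-in is in every cell of the animal, microglia included, and the tissue was whole striatum, not sorted cells. Mutants 141, 153 and 154 and wild-type mouse 161 were female, and mutant 191 and wild-type mice 170, 180 and 200 were male. The labels number each mouse as a separate animal, and each gave 1 array, with values on the log2 scale. Array medians ran from 4.95 to 4.98, and between arrays of different groups r lay at 0.983 to 0.991. The control probe sets of wild-type mouse 170 stood apart from those of the other 7 mice, as given below with the C1q genes, and medium spiny neuron markers used to check the tissue were bright in all mice and lower in the mutants.

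Microglia are the resident macrophages of the brain. They depend on signalling through the receptor Csf1r, survey the tissue with purinergic receptors such as P2ry12, and receive signals from neurons through the fractalkine receptor Cx3cr1. In ageing and degenerating tissue part of them lowers such genes and raises others, among them Clec7a, Cst7 and Lgals3, by way of the receptor Trem2 and its adaptor Tyrobp. C1q, built of chains from C1qa, C1qb and C1qc, starts the classical complement pathway, is made in brain mostly by microglia, and tags synapses that microglia can remove through the receptor encoded in part by Itgam.

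The transcription factors PU.1, encoded by Spi1, and Irf8 drive much of the microglial programme, so promoter windows were searched for their motifs. RefSeq windows of build GRCm38.p6, from 250 bases before to 50 bases after a start site, were found for 27 of the 38 genes. The stretches before the start site are shown for Aif1, Clec7a and Ctss, the genes nearest to a difference between the groups by adjusted p or by separate values, and for C1qc, a member of the C1q trio. Capitals mark a match to GAGGAAGT (PU.1 type), GGAA and GAAA with 2 free bases between them (PU.1 with IRF), or GAAA and GAAA with 2 free bases between them (IRF type), on either strand.
Aif1 (chr17:35176053-35176302, minus strand): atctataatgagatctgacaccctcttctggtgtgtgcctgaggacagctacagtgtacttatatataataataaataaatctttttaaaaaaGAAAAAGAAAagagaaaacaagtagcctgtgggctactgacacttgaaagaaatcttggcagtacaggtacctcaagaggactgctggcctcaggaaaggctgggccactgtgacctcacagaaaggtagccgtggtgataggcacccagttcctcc
Clec7a (chr6:129472780-129473029, minus strand): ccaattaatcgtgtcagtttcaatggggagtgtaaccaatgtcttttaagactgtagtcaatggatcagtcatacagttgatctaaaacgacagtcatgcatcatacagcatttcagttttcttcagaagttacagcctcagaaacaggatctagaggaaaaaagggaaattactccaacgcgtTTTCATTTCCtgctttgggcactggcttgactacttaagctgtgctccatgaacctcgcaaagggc
Ctss (chr3:95526536-95526785, plus strand): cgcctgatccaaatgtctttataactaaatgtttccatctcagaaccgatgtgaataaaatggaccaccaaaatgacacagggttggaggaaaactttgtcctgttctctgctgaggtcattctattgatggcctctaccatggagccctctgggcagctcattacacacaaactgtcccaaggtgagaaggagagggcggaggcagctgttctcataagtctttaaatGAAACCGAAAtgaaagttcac
C1qc (chr4:136892915-136893164, minus strand): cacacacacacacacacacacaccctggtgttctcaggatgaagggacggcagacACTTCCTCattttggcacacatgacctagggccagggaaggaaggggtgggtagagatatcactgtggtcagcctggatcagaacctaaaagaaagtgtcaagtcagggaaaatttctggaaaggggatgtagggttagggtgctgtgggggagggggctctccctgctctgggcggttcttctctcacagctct
The first motif lay in 3 of the 31 windows of the 27 genes, those of C1qc, Cd53 and Ctss, and in 3.2% of all 32851 windows. In Ctss it spans the start site, on the opposite strand, and runs out of the printed stretch. The second lay in 3 of the 31 windows, of Cd68 and Clec7a, and in 2.72% of all windows. The third lay in 2 of the 31 windows, of Aif1 and Ctss, and in 3.44% of all windows. Clec7a has a pair of overlapping windows, of which the first is shown. A match describes these letters and is not evidence of binding.

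None of the 36 measured genes differed between mutant and wild-type striatum at an adjusted p under 0.05 (limma, genotype and sex in the fit, Benjamini-Hochberg adjustment over all genes), while 12.4% of all genes tested did. At an unadjusted p under 0.05 there were 2 of the 36, Aif1 and Clec7a, against 25.9% of all genes. The sex-adjusted log2 change, mutant minus wild type, was above 0 for 21 of the genes and below 0 for 15, with a median of 0.04 beside 0.01 over all genes. Its size was also small, with a median absolute change of 0.08 against 0.13 over all genes. Mutant and wild-type values were fully separate for 1 of the 36 genes, Ctss, and for 20.7% of all genes. In bulk tissue, fewer cells of a type and less RNA per cell cannot be told apart, and neither can opposite shifts of both.

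The arrays set a limit to this result that can be stated. SEs of the 36 log2 changes ran from 0.08 to 0.20, with a median of 0.12 beside 0.10 over all genes. The 95% interval of the change lay inside 1.5-fold in both directions for 32 of the 36 genes, beside 84.4% of all genes. It lay inside 2-fold for all 36. It reached past 1.5-fold for Aif1 and Fcrls on the lower side and for C1qa and Clec7a on the higher side. Like precision was taken as an SE within 0.02 of the median SE of the 36. Among 998 such genes that did differ at an adjusted p under 0.05, the smallest absolute log2 change was 0.33. Of the 36 genes 3 reached that size, Aif1, Clec7a and Fcrls. Only Aif1 of these (SE 0.11) lay in that window, and its change of -0.36 did not pass. Clec7a (SE 0.17) and Fcrls (SE 0.16) were less precise, so the 0.33 does not apply to genes of their precision. All 8 values lay under 5, the log2 of 32, and so near background, for 7 of the genes: Itgam, Itgax, C3ar1, Cd86, Tlr2, Tlr7 and Cst7. Changes of such genes can be compressed.

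**Figure D1:**
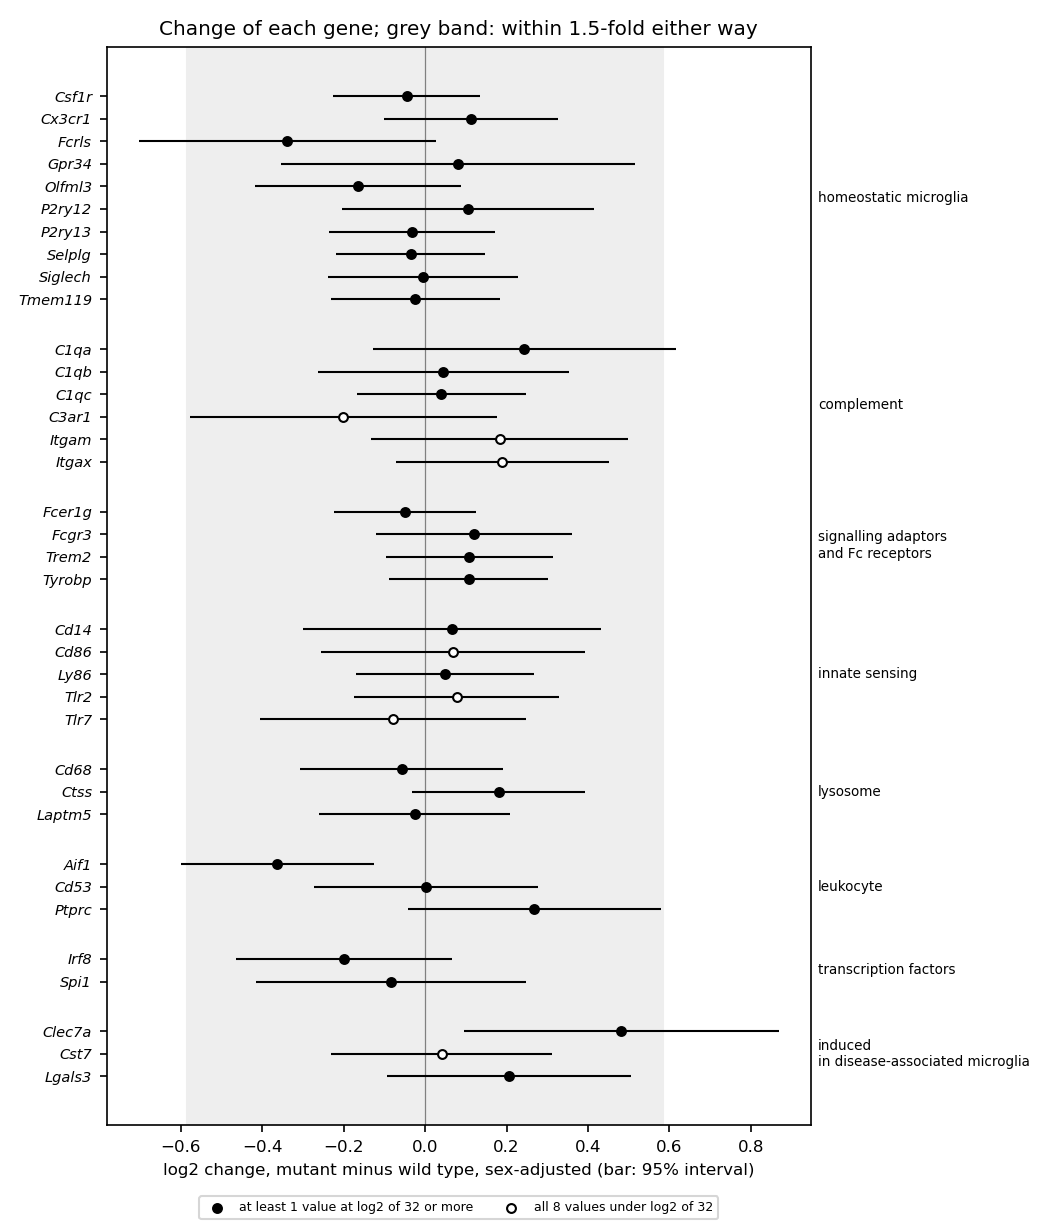
Sex-adjusted log2 change, mutant minus wild type, of each of the 36 genes (points) with its 95% interval (bars), grouped by role; the grey band spans 1.5-fold in both directions and open points mark genes with all 8 values under log2 of 32. For 32 genes the interval stays inside the band, as it does for 84.4% of all genes. An adjusted p under 0.05 was reached by 0 of 36, beside 12.4% of all genes.

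Genes that mark microglia in their resting, homeostatic state gave log2 changes from -0.34 to 0.11, with a median of -0.03, and 0 of 10 passed the test. Tmem119, a membrane protein that marks microglia against other brain macrophages, read 7.31, 7.48, 7.47 and 7.55 in mutants 141, 153, 154 and 191, and 7.52, 7.55, 7.37 and 7.57 in wild-type mice 161, 170, 180 and 200. The same order of mice is used throughout. The groups overlapped, and the change was -0.02 (95% interval -0.23 to 0.18). Csf1r, the receptor that microglia need to survive, read 10.67, 10.72, 10.69 and 10.88 in the mutants and 10.84, 10.84, 10.79 and 10.81 in the wild-type mice. Its 3 female mutants stood below all wild-type mice and the male mutant above them, with a change of -0.05 (95% interval -0.23 to 0.14). A second Csf1r probe set, not used for the gene, had a change of -0.25 with a limma adjusted p of 0.168, and the third had 0.04.

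Cx3cr1, the receptor for the neuronal chemokine fractalkine, read 8.45, 8.44, 8.37 and 8.83 in the mutants and 8.50, 8.48, 8.59 and 8.52 in the wild-type mice. Mutant 191 alone was above the rest, the wild-type mice spanned a narrow range, and the change was 0.11 (95% interval -0.10 to 0.33). P2ry12, the ADP receptor that guides microglial processes, read 7.44, 7.57, 7.58 and 7.55 in the mutants and 7.49, 7.02, 7.57 and 7.56 in the wild-type mice. Wild-type mouse 170 lay below all others, and the remaining 7 mice lay within 7.44 to 7.58. Fcrls, an Fc receptor-like gene of mouse microglia, read 6.25, 6.60, 6.05 and 6.27 in the mutants and 6.67, 6.89, 6.55 and 6.29 in the wild-type mice. Mutant 153 stood inside the wild-type range, and the change of -0.34 (SE 0.16, limma adjusted p = 0.232) did not pass. The purinergic receptor P2ry13, the lectin Siglech, the lysophosphatidylserine receptor Gpr34, the secreted protein Olfml3 and the selectin ligand Selplg had changes between -0.16 (Olfml3) and 0.08 (Gpr34), and the mutant and wild-type values of all 5 overlapped.

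Complement genes gave changes from -0.20 to 0.24, with a median of 0.11, and 0 of 6 measured members passed. C1qa, the A chain of C1q, read 9.15, 9.15, 9.31 and 9.33 in the mutants and 9.03, 8.56, 9.14 and 9.35 in the wild-type mice. C1qb, the B chain, read 7.93, 8.05, 8.10 and 8.16 in the mutants and 8.09, 7.66, 8.14 and 8.22 in the wild-type mice. C1qc, the C chain, read 7.86, 8.03, 8.05 and 7.91 in the mutants and 7.95, 7.74, 7.83 and 7.99 in the wild-type mice. In all 3 genes wild-type mouse 170 was the lowest of the 8, and the other wild-type mice lay within or above the mutants in C1qb, inside or just below them in C1qc and from below to above them in C1qa. The changes were 0.24 for C1qa (SE 0.17, limma adjusted p = 0.417), 0.05 for C1qb and 0.04 for C1qc.

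Mouse 170 also differed in the control probe sets that compare the 3' with the 5' end of a transcript, where a larger difference marks RNA that is more degraded or less fully copied. For Gapdh the 3' minus 5' difference was 1.37 in mouse 170 and 0.32 to 0.43 in the other 7 mice, and for beta-actin it was 2.65 against 1.23 to 1.51. Without mouse 170 the log2 change was 0.13 for C1qa, -0.04 for C1qb, 0.01 for C1qc and 0.01 for P2ry12, where with it the change of P2ry12 was 0.10. The 2 other C1qb probe sets did not place mouse 170 lowest, at 6.94 and 7.61 against 6.87 to 7.13 and 7.50 to 8.01 in the other mice. One of the Csf1r probe sets that was not used did, at 8.22 against 8.57 to 8.69. Across the 36 genes mouse 170 was lowest of the 8 in 7 and highest in 7, and over all genes in 11.8% and 18.3%. The part of RNA quality in these values was not tested.

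**Figure D2:**
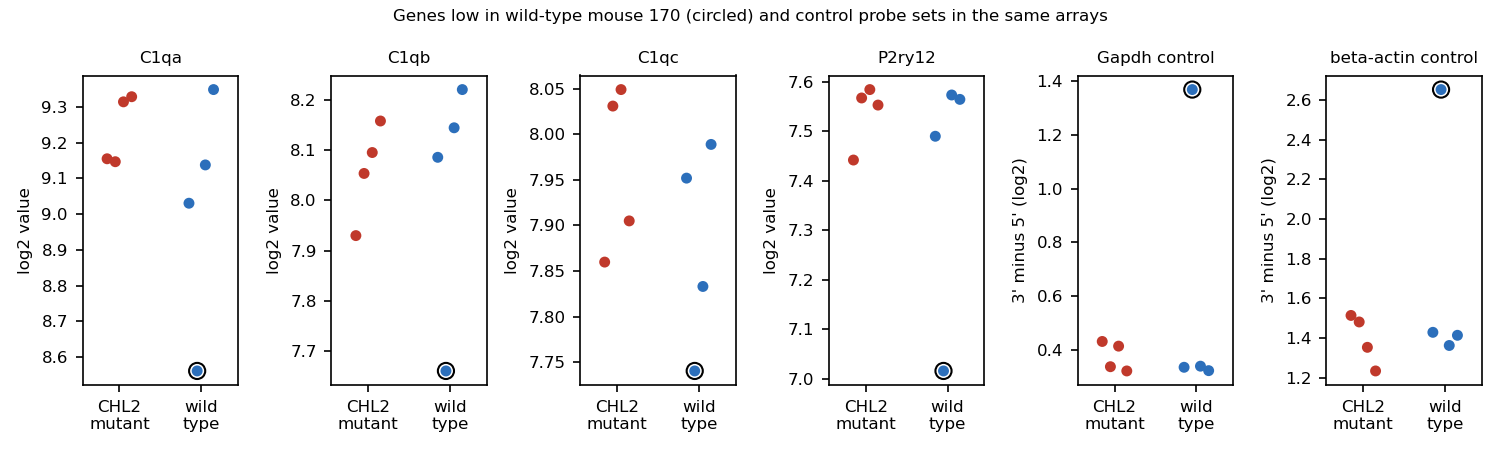
Log2 values of C1qa, C1qb, C1qc and P2ry12 and the 3' minus 5' log2 difference of the controls for Gapdh and beta-actin, 1 point per mouse, in the order 141, 153, 154, 191 (CHL2 mutants, red) and 161, 170, 180, 200 (wild type, blue), on axes that do not start at 0. Mouse 170, circled, is the lowest of 8 for the 4 genes and the highest for both controls, at 1.37 for Gapdh and 2.65 for beta-actin.

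Receptors for complement fragments were dim. Itgam and Itgax, the alpha chains of complement receptors 3 and 4, had changes of 0.18 and 0.19, and C3ar1, an anaphylatoxin receptor, had -0.20, with all values of the 3 genes under 5 and overlapping between the groups. The beta chain that Itgam and Itgax share, Itgb2, which is not on the list, had a change of 0.17 (limma adjusted p = 0.269).

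Trem2, a lipid-sensing receptor, read 5.93, 5.98, 6.17 and 5.88 in the mutants and 5.90, 5.71, 5.76 and 5.89 in the wild-type mice. Tyrobp, its signalling adaptor, read 8.52, 8.73, 8.58 and 8.62 in the mutants and 8.50, 8.51, 8.42 and 8.60 in the wild-type mice. In both genes the highest mouse was a mutant, 154 for Trem2 and 153 for Tyrobp, and the groups overlapped, with changes of 0.11 (95% interval -0.10 to 0.31) and 0.11 (95% interval -0.09 to 0.30). The dimmer Trem2 probe set had a change of -0.20. The Fc receptor Fcgr3 had a change of 0.12 and Fcer1g, the common Fc receptor gamma chain, -0.05, and neither passed.

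Clec7a, Cst7 and Lgals3, which rise in disease-associated microglia, had changes above 0 in all 3 cases, with a median of 0.21, and 0 of 3 passed. Clec7a, the receptor Dectin-1, had the largest absolute change of the 36 genes. It read 4.86, 5.14, 4.43 and 5.04 in the mutants and 4.27, 4.88, 4.38 and 4.57 in the wild-type mice. Mutant 154 lay among the wild-type mice and wild-type mouse 170 among the mutants, and 6 of the 8 values were under 5. The change was 0.48 (SE 0.17, 95% interval 0.09 to 0.87, limma adjusted p = 0.107), and it passed without mutant 154 (log2 change 0.57, adjusted p = 0.0343), also with sex left out of that fit (0.49, adjusted p = 0.0476). With values under the log2 of 32 raised to it, the change was 0.04 (adjusted p = 0.755). Lgals3, which encodes galectin-3, had a change of 0.21 and Cst7, a lysosomal protease inhibitor, 0.04, with mutant 153 highest of the 8 mice in all 3 genes. For Lgals3 4 of the 8 values were under 5, and for Cst7 all 8. The sign of the Cst7 change was the other one in 2 of 22 settings.

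Aif1, which encodes the actin-bundling protein Iba1 used to stain microglia, had the lowest p of the 36. It read 6.42, 6.29, 6.28 and 6.30 in the mutants and 6.76, 6.71, 6.37 and 6.71 in the wild-type mice. Wild-type mice 161, 170 and 200 lay above all mutants, while mouse 180 lay inside the mutant range, just below mutant 141. The change of -0.36 (SE 0.11, 95% interval -0.60 to -0.13, limma adjusted p = 0.0509) corresponds to a value 1.29-fold lower in the mutants and missed the threshold by a small margin. It passed with sex left out of the fit (-0.32, adjusted p = 0.0414), without wild-type mouse 180 (-0.42, adjusted p = 0.0167) and in 6 other of the 24 settings tried, and its sign was the same in all 24. Mutant 191 was the only male mutant and mouse 161 the only female wild-type mouse, so with sex in the fit, leaving out either one compares 3 mice of 1 sex with a single mouse. The change of Aif1 was then -0.43 in females (adjusted p = 0.183) and -0.30 in males (adjusted p = 0.358), and a call lost in these 2 fits does not show a smaller change. Without the sex term it was -0.31 without mutant 191 and -0.28 without mouse 161.

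Ptprc and Cd53 encode surface proteins of all leukocytes, and neither passed. Ptprc, which encodes CD45, read 5.14, 4.76, 5.24 and 5.27 in the mutants and 4.82, 5.14, 5.04 and 4.72 in the wild-type mice. The groups overlapped, with mutant 153 among the wild-type mice, and the change of 0.27 had a limma adjusted p = 0.269. Cd53 had a change of 0.00 (95% interval -0.27 to 0.28).

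Ctss, the lysosomal protease cathepsin S, read 10.81, 11.04, 10.94 and 10.79 in the mutants and 10.60, 10.77, 10.74 and 10.76 in the wild-type mice. Every mutant was above every wild-type mouse, though the lowest mutant and the highest wild-type mouse, 10.79 and 10.77, almost met. With sex in the fit the change was 0.18 (SE 0.10, limma adjusted p = 0.279). Cd68, a lysosomal membrane protein of phagocytes, had -0.06, and Laptm5, a lysosomal protein of blood-derived cells, -0.03. The 5 Laptm5 probe sets lay on both sides of 0, from -0.21 to 0.17, and none passed.

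The transcription factor genes had changes of -0.20 for Irf8 and -0.08 for Spi1. Irf8 passed only where both mutant 153 and the sex term were dropped (-0.36, adjusted p = 0.0404), while its adjusted p was 0.344 with all mice. The innate sensing genes Tlr2, Tlr7, Cd14, the Toll-like receptor partner Ly86 and the costimulatory ligand Cd86 had changes from -0.08 to 0.08, with a median of 0.07, and 0 of 5 passed.

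**Figure D3:**
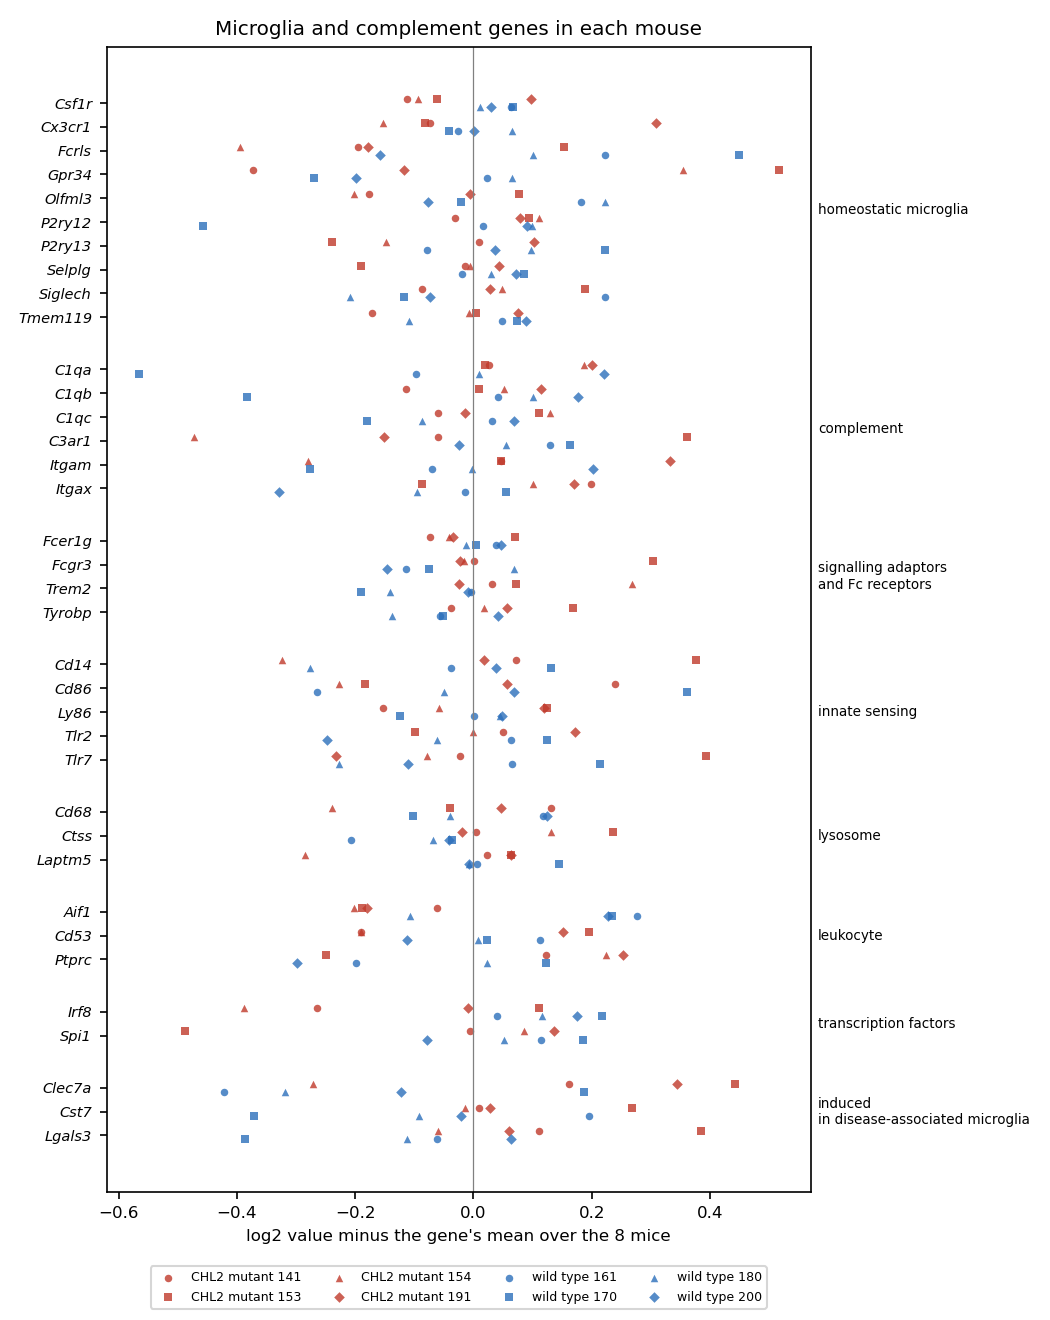
Log2 value of each of the 36 genes in each mouse after subtracting the gene's own average (x axis), by role (y axis); red symbols are the 4 CHL2 mutants and blue symbols the 4 wild-type mice, 1 symbol shape per mouse in each group. The colours overlap in 35 of the 36 genes and Ctss alone has no overlap, where 20.7% of all genes have none. Mutant 153 is the highest of 8 in 13 of the 36 genes and in 20.1% of all genes.

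Single mice stood out in many of these genes. Mutant 153 was the highest of the 8 mice in 13 of the 36 genes and mutant 154 the lowest in 11, beside 20.1% and 11.4% over all genes. The mean of the 36 centred log2 values was 0.08 in mutant 153, 0.06 in mutant 191, -0.03 in mutant 141 and -0.07 in mutant 154, and -0.03 to 0.01 in the wild-type mice. The wild-type mice sat inside the range of the mutants. The SD was larger among mutants than among wild-type mice in 23 of the 36 genes, and in 56.8% of all genes. Between the sexes 0 of 36 genes passed (limma, 0.0275% of all genes did), and the unadjusted p was under 0.05 for 2, Cx3cr1 and P2ry13. The genotype change did not differ between the sexes past the threshold for any of the 36, beside 0.00550% of all genes (lowest adjusted p = 0.969), and the unadjusted p was under 0.05 for 1, Cx3cr1. With 1 mouse in 2 of the 4 combinations of sex and genotype, that comparison has little reach. Of the 18 further probe sets for these genes, 0 passed among all probe sets tested, and 1, for Csf1r, had an unadjusted p under 0.05.

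Further microglial genes were counted in the same way. Of 35 measured, 1 was higher and 1 lower, where 6.40% of all genes were higher and 6.01% lower. Trpv2, a calcium-permeable channel also found in macrophages, read 6.22 ± 0.12 in the mutants and 5.77 ± 0.11 in the wild-type mice (SD, n = 4 each), and rose 1.3-fold after sex adjustment (limma adjusted p = 0.0224). Rgs10, a G protein signalling regulator that neurons express too, was 1.32-fold lower (adjusted p = 0.0214). In the 3-against-1 fits both calls were lost, with log2 changes of 0.33 for Trpv2 and -0.29 for Rgs10 in females (adjusted p = 0.235 and 0.289) and 0.43 and -0.50 in males (0.115 and 0.0676), against 0.38 and -0.40 with all mice. With the sex term dropped, Trpv2 passed without mutant 191 (0.00835) and without mouse 161 (0.00424). Rgs10 passed in neither (0.120 and 0.118), nor with all mice and no sex term (-0.30, adjusted p = 0.0553). It did not pass with the floor either (0.0534), which left its change at -0.40. With 1 mouse left out and the sex term dropped, Rgs10 passed only without mutant 153 (-0.38, adjusted p = 0.0145).

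Of 24 further genes linked to disease-associated microglia, 3 rose and 1 fell, with a median change of 0.09; 12.4% of all genes passed, and a count of this size is near that share. The lysosomal protease gene Ctsl rose 1.37-fold (limma adjusted p = 0.00463), the metalloproteinase inhibitor gene Timp2 1.27-fold (adjusted p = 0.0215) and B2m, the light chain of MHC class I, 1.38-fold (adjusted p = 0.0472). Lpl, lipoprotein lipase, was 1.43-fold lower (adjusted p = 0.00614), opposite to its direction in disease-associated microglia. All 4 genes are expressed outside microglia as well. Apoe, the apolipoprotein made by astrocytes and by activated microglia, had a change of -0.04 (adjusted p = 0.887). With probe sets averaged per gene, the change of Ctsl was 0.24 in place of 0.45 (adjusted p = 0.0765), and the calls of Timp2 (0.33, adjusted p = 0.0915) and B2m (0.40, adjusted p = 0.0835) were lost too. In the comparison of 1 male mutant with 3 male wild-type mice no call was kept, at changes of 0.48 for Ctsl (adjusted p = 0.0508), 0.31 for Timp2 (0.211), 0.60 for B2m (0.120) and -0.45 for Lpl (0.111). In females Lpl passed (-0.59, adjusted p = 0.0495), while Ctsl (0.43, adjusted p = 0.0865), Timp2 (0.38, 0.131) and B2m (0.34, 0.406) did not. With the sex term dropped, all 4 passed without mouse 161 (adjusted p = 0.00374, 0.00998, 0.0456 and 0.00228), and without mutant 191 all but B2m (0.0680). B2m was also lost without mutants 141 (0.0618) or 154 (0.0771) or wild-type mice 170 (0.0698) or 180 (0.0906). It did not pass with a second quantile normalization (0.0512) or with the floor (0.159), which left its change at 0.47.

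Of 27 further complement genes measured, 1 rose and 3 fell, with a median change of -0.08, again near the 12.4% of all genes that passed. Cfp, which encodes properdin, the stabiliser of the alternative pathway, read 7.20 ± 0.29 in the mutants against 8.03 ± 0.27 in the controls (SD, n = 4 each) and so was 1.79-fold lower after sex adjustment (limma adjusted p = 0.0158), with no overlap. Cd59a, which blocks the membrane attack complex, was 1.39-fold lower (adjusted p = 0.00733), also with no overlap. Masp2, a protease of the lectin pathway, was 1.33-fold lower (adjusted p = 0.0236), with all values under 5. C1qbp, a mitochondrial protein that can bind C1q, rose 1.2-fold (adjusted p = 0.0485). With the floor Cfp kept its change of -0.84 and had a limma adjusted p of 0.109. The change of Cfp was -1.18 in females and -0.49 in males, each against a single mouse, and -0.74 without mouse 161 and the sex term (adjusted p = 0.0116). Cd59a kept its size in these fits, at -0.45 in females (0.113) and -0.51 in males (0.0676), passed in both with the sex term dropped (0.00876 and 0.00827), and did not pass with probe sets averaged (-0.43, 0.0731). Masp2 had -0.42 and -0.41 in the same fits and did not pass there with the sex term dropped (0.0806 and 0.0843). It did not pass without wild-type mouse 200 (0.0525) or with probe sets averaged (-0.23, 0.0968). With the sex term dropped, it was also lost without mutant 153 (0.0813) or wild-type mice 170 (0.0795) or 200 (0.0830). The C1qbp call was lost whenever any single mouse was left out, without the sex term (0.20, adjusted p = 0.109) and with probe sets averaged (0.21, 0.0835). Of the 27 genes, 18 had all values under 5.

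Ligands that reach microglia from other cells were measured too. Of 10 ligands of microglial receptors, 3 rose and 1 fell, where 6.40% of all genes rose and 6.01% fell. Cx3cl1, the neuronal ligand of Cx3cr1, read 10.24, 10.11, 10.11 and 10.09 in the mutants and 11.02, 10.81, 10.98 and 10.99 in the wild-type mice. Every mutant was below every wild-type mouse by a wide gap, 1.8-fold lower (limma adjusted p = 0.000193), and the call held in all 24 settings tried. Cd200, a neuronal and endothelial ligand that restrains microglia, ran from 8.83 to 9.13 in the mutants and from 8.26 to 8.50 in the wild-type mice. It rose 1.55-fold (adjusted p = 0.0029), again with no overlap, and among the 24 settings its call was lost only in the females' 3-against-1 comparison (log2 change 0.46, adjusted p = 0.0907). The growth factor gene Tgfb2 rose 1.35-fold (adjusted p = 0.0465) and Pros1, a ligand of the Mertk receptor family, 1.34-fold (adjusted p = 0.0472). With 1 mouse left out and sex in the fit, Tgfb2 passed only without mutant 154, at changes of 0.34 to 0.52, but with the sex term dropped it passed in all 8 such fits (changes 0.49 to 0.70, adjusted p = 0.00409 to 0.0377). Its call was also lost with a second quantile normalization (0.0556) and the floor (0.142), though the floor left its change at 0.43. Pros1 passed only without mutant 141 with sex in the fit (changes 0.32 to 0.51). With the sex term dropped it passed in 1 of the 8 fits (changes 0.29 to 0.43). It did not pass with a second quantile normalization (0.0682) or with the floor (0.140), which left its change at 0.42. Csf1 and Il34, the ligands of Csf1r, had changes of 0.14 and 0.15 (adjusted p = 0.449 and 0.669).

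**Figure D4:**
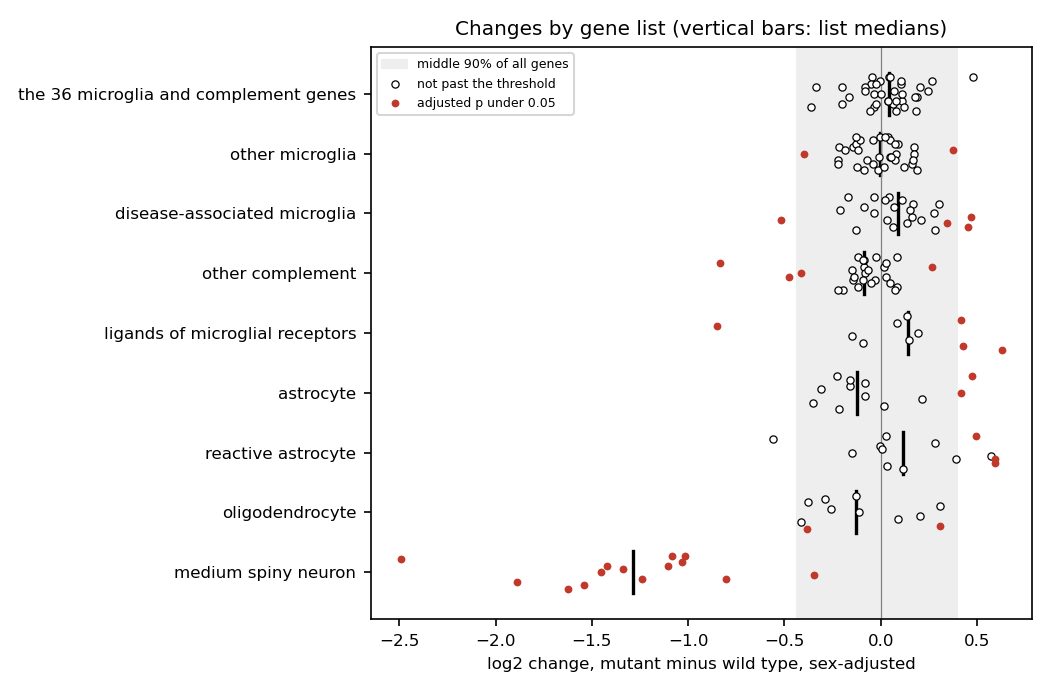
Sex-adjusted log2 change, mutant minus wild type, of single genes (points) in 9 gene lists; filled red points passed an adjusted p under 0.05, vertical bars are list medians and the grey band runs from the 5th to the 95th percentile of all genes, -0.43 to 0.40. The microglia and complement genes have 0 filled points of 36, while the medium spiny neuron markers have 14 of 14, all below 0.

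Markers of the other cells of the tissue were counted in the same fit. Of 14 medium spiny neuron markers measured, all 14 fell, with a median log2 change of -1.29, led by the sodium channel subunit gene Scn4b at 5.63-fold, Gpr6 at 3.71-fold, Penk at 3.09-fold and Rgs9 at 2.91-fold lower. Tac1, with a change of -0.34, did not pass in the 3-against-1 fits (-0.36, adjusted p = 0.189 in females and -0.33, 0.212 in males), without wild-type mouse 180 (0.0632), with a second quantile normalization (-0.27, 0.0691) or with probe sets averaged (-0.21, 0.119), and Pdyn did not in males (-0.86, 0.0689, against -1.03 with all mice). RMA scales the arrays to 1 distribution, so a change in total RNA per cell cannot be seen in any of these values. Over all genes 12.4% passed, 6.40% higher and 6.01% lower. Changes above 0 were seen in 4 of 12 astrocyte markers (median -0.12, lowest -0.35). For reactive astrocyte genes this was 10 of 13 (median 0.11, lowest -0.56). With no sex term, 2 astrocyte markers were higher and 3 lower. With sex in the fit 2 of the 12 astrocyte markers rose, S100b 1.34-fold (limma adjusted p = 0.00877) and the filament gene Gfap 1.39-fold (adjusted p = 0.0341). Of the 13 reactive astrocyte genes 3 rose. These were Vim at 1.51-fold (adjusted p = 0.00994), Serpina3n at 1.41-fold (adjusted p = 0.0407) and S1pr3 at 1.51-fold (adjusted p = 0.0492). In the 3-against-1 fits none of these 5 passed. The changes there were 0.39 in females and 0.45 in males for S100b, 0.59 and 0.60 for Vim, 0.35 and 0.60 for Gfap, 0.68 and 0.30 for Serpina3n and 0.76 and 0.43 for S1pr3, against 0.42, 0.59, 0.48, 0.49 and 0.60 with all mice. With the sex term dropped, S100b, Vim, Gfap and Serpina3n passed without mutant 191 (adjusted p = 0.0392, 0.00250, 0.0109 and 0.00154) and without mouse 161 (0.0421, 0.00204, 0.00188 and 0.0140). Left out 1 at a time with sex in the fit, mutant 153 (0.0545) and wild-type mouse 200 (0.0696) also ended the call of Gfap, mutant 153 (0.0617) and wild-type mice 170 (0.0688) and 200 (0.0611) that of Serpina3n, and every mouse but mutant 153 that of S1pr3. The floor ended those of Gfap (0.123), Vim (0.0597), Serpina3n (0.147) and S1pr3 (0.193). It left the changes of Gfap and Serpina3n at 0.48 and 0.49, as in the main fit. S1pr3 was also lost with no sex term (0.40, adjusted p = 0.172), with a second quantile normalization (0.0556) and with probe sets averaged (0.28, 0.0943). Counts in the oligodendrocyte and endothelial lists were near the shares over all genes. Of 11 oligodendrocyte markers (median change -0.13) Opalin rose 1.24-fold (limma adjusted p = 0.0199) and Mobp was 1.31-fold lower (adjusted p = 0.0225). Of 9 endothelial markers (median change -0.16) Cdh5 was 1.36-fold lower (adjusted p = 0.0207). In the 3-against-1 fits none of the 3 passed, at changes of 0.29 in females and 0.33 in males for Opalin (against 0.31 with all mice), -0.34 and -0.43 for Mobp (-0.38) and -0.45 and -0.44 for Cdh5 (-0.45). With the sex term dropped Mobp passed without mutant 191 (0.0194) and without mouse 161 (0.0149), while Opalin (0.105 and 0.114) and Cdh5 (0.0825 and 0.0853) did not. With probe sets averaged Opalin (0.20, adjusted p = 0.0983) and Mobp (-0.25, 0.282) were lost.

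Other immune cells express genes such as Ptprc, Cd53, Itgam and Fcgr3 too, and their markers were mostly near background. Over all genes 12.4% passed, with 6.01% lower, and 20.7% did not overlap between the groups. Of 8 perivascular macrophage markers 0 passed and 7 had all values under 5, Mrc1 and Cd163 among them. Cd163 did not overlap between the groups (log2 change -0.40, limma adjusted p = 0.12), and the mean centred level ran from -0.15 to 0.05 in mutants and from -0.01 to 0.09 in wild-type mice. Of 9 monocyte and neutrophil markers 0 passed and 7 had all values under 5, with levels from -0.15 to 0.13 and from -0.04 to 0.08. Of 11 lymphocyte markers 1 fell, Cd4, at 1.95-fold (limma adjusted p = 0.000701), while the T cell CD3 chain genes Cd3d and Cd3g had all values under 5 and Cd3e read 5.60 ± 0.05 in mutants and 5.64 ± 0.04 in wild-type mice. Of the 11 lymphocyte markers 8 had all values under 5, and the median change was -0.08. Lymphocyte levels ran from -0.11 to -0.03 in mutants and from 0.02 to 0.08 in wild-type mice. These levels are means that include Cd4, whose log2 change was -0.97, and levels without Cd4 were not tested. All 4 blood markers measured had all values under 5, and their level of 0.36 in wild-type mouse 170 was the highest, against -0.14 to 0.03 in the other 7 mice. The part of these cells in the values of the 36 genes was not tested.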

How the data were processed

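Striatal RNA of 8 mice was hybridised to Affymetrix mouse whole-genome arrays, 1 array per mouse. The deposited table holds log2 values that the authors made with RMA and the affy package, per the submitters' processing notes, with their versions not given in the sources used here. This method scales all arrays to 1 distribution. Of 45037 probe sets that are not controls, 34945 had 1 gene symbol in the platform annotation, 932 had several and 9160 were not listed. The brightest single-symbol probe set stood for each of 18193 genes.

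The fit used limma 3.58.1 in R 4.3.3 (lmFit and eBayes) with genotype and sex as terms, and Benjamini-Hochberg adjustment over all genes. The steps were tested on simulated data. The members and lists were chosen with earlier results of these data known. Values in every mouse are given for the 5 genes nearest to the threshold and for a fixed list of well-known members. In each other list up to 4 genes past the threshold with the lowest adjusted p are named, with Gfap, Apoe, Csf1, Il34, Cx3cl1 and Cd200 whatever their result; Itgb2, Mrc1, Cd163, the Cd3 chains, Tac1 and Pdyn were named after their values were seen. Alternatives were the sex term, the prior, a second quantile normalization, median centring, a filter on dim genes, averaging of probe sets, a floor at the log2 of 32, array weights, other thresholds and leaving out each mouse.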

Additional observations from a re-analysis of the deposited data

Results flagged for a closer look

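In a group of 4 mice, 1 value can stand far from the other 3 relative to the group's range, measured with Dixon's ratio, and chance alone does so in about 1 of 20 groups. It did so in 12 of the 132 groups examined, 7 of them among the 72 groups of the microglia and complement genes. Aif1 read 6.37 in wild-type mouse 180, below the 6.71 to 6.76 of its 3 group mates, and 6.42 in mutant 141, above 6.28 to 6.30 in the other mutants. P2ry12 read 7.02 in wild-type mouse 170 against 7.49 to 7.57, and Laptm5 read 8.23 in the same mouse against 8.08 to 8.10. Laptm5 also read 7.80 in mutant 154 against 8.11 to 8.15. Mutant 153 was high for Fcgr3, at 7.21 against 6.88 to 6.91, and for Cst7, at 4.19 against 3.91 to 3.95.

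Among other named genes, Cx3cl1 read 10.24 in mutant 141 against 10.09 to 10.11 in the other mutants. S1pr3 read 5.31 in wild-type mouse 161 against 5.81 to 5.90, and 5.59 in mutant 153 against 6.27 to 6.34. Opalin read 8.66 in mutant 191 against 8.50 to 8.51, and Rgs9 read 11.89 in wild-type mouse 200 against 11.70 to 11.73.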

How the results depend on the processing

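The count of microglia and complement genes lower in mutants was 1, Aif1, in place of 0 with no sex term, with quantile normalization again, with median centring, with dimmer genes left out, with probe sets averaged per gene and with an adjusted p under 0.1. With 1 mouse left out, the count ran from 0 to 1 in each direction: Clec7a was higher without mutant 154, and in fits that also dropped the sex term Aif1 was lower without mutant 141 and Irf8 without mutant 153; Aif1 was lower without wild-type mouse 180 with or without sex. Over all genes 2258 passed, 1029 with an adjusted p under 0.01, and 702 (without mutant 191) to 2497 with 1 mouse left out, with 864 without wild-type mouse 161. Leaving out mutant 191 or wild-type mouse 161 with sex in the fit compares 3 mice with 1 and so leaves fewer samples to tell the groups apart. The cause of the other shifts was not tested. Of 842 pairs of a gene and a setting, 11 newly passed, 58 moved by more than the SE and 0 reversed a call. In 75 pairs, all of values that passed in neither fit, the sign was the other one, in 19 genes, and 17 genes kept their sign. The 7 genes with all values under the log2 of 32 have no value with that floor. For Cfp, Rgs10, B2m, Tgfb2, Pros1, Gfap and Serpina3n the floor left the log2 change the same while the adjusted p rose. Their calls lost with the floor do not show signal near background. The fit shares a variance estimate over all genes, and the floor alters the dim ones. The cause of the rise was not tested. No paired analysis was possible because the mutant and wild-type mice share no replicate number. Signal near background and 4 mice per group limit what can be detected.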

Other observations

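Markers of choroid plexus and ependyma, which can enter a striatal dissection from the neighbouring ventricle, differed between single mice. The mean centred log2 level of 8 such genes was 1.23 in mutant 141 and 0.87 in wild-type mouse 161, both female, and -0.79 to 0.19 in the other 6 mice. Of these 8 genes 0 passed the limma test of genotype at an adjusted p under 0.05, beside 12.4% of all genes. The mean centred level of the 36 microglia and complement genes was -0.03 in mutant 141 and 0.01 in wild-type mouse 161, inside the range of the other mice.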
